A study of Capra hircus with 4 samples.

Results

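Pancreatic polypeptide cells (PPY cells) of the goat pancreas are described here. They were taken from single-cell RNA libraries as barcodes with at least 3500 unique molecular identifiers (UMIs, each counting 1 captured transcript) and 500 genes. PPY, the gene of pancreatic polypeptide, had to hold at least 5% of a barcode's UMIs and to exceed INS, GCG and SST together. The sum of PRSS2, CLPS, SYCN, CTRC and CEL, which encode acinar digestive enzymes or their partners, had to stay under 5%, and PTPRC, a pan-leukocyte gene, had to be at 0. This left 950 cells of 16177 barcodes with the same depth and gene number. The PPY level of these cells was therefore set by the rule and is given as a description.

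The study profiled dissociated pancreas of twin female Liuyang black goats, 2 of them ruminating and aged 6 months, and 2 not yet ruminating and aged 10 days. No treatment or genotype is stated for any animal. The deposited counts come from 4 numbered libraries, and which goat gave which library is not stated. The ages were therefore not compared, and each result was read inside every library with no p-value. The submitters' labels name beta, delta and endocrine-like cells among the cell types, and no PPY class. The libraries held between 43297855 and 82817057 UMIs over all barcodes.

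Pancreatic polypeptide is a peptide hormone of the islets that is released after meals, largely under vagal control, and that slows exocrine secretion and gut motility. PPY cells form a separate endocrine class beside the insulin-secreting beta cells, the somatostatin-secreting delta cells and the glucagon-secreting alpha cells. Hormones are cut from precursors by convertases, stored with granins in dense-core granules and released by calcium-driven exocytosis, and many peptides, pancreatic polypeptide among them, are amidated at their end by PAM.

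PPY cells made up 11.2% of barcodes in library 1 (315 of 2819, exact 95% binomial interval 10.0 to 12.4%). In library 2 the share was 3.15% (182 of 5769, 2.72 to 3.64%). Library 3 had 7.82% (356 of 4551, 7.06 to 8.64%), and 3.19% was the share of library 4 (97 of 3038, 2.60 to 3.88%). Libraries 1 and 3 were the high ones, and the intervals of libraries 2 and 4 overlapped. These intervals cover counting error only, and the strainers and the removal of dead cells that preceded capture can set such shares. Among the cells of the 4 hormone classes, selected by the same rule with the other hormones in turn, PPY cells held 43.8, 18.6, 32.1 and 11.4% of libraries 1 to 4.

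The same selection gave 2265 beta, 252 delta and 189 alpha cells. Across the libraries in order of their numbers there were 339, 663, 538 and 725 beta cells, 60, 71, 102 and 19 delta cells, and 5, 64, 112 and 8 alpha cells. Comparisons used the libraries with at least 20 cells of both classes. They are libraries 1 to 4 against beta cells, libraries 1 to 3 against delta cells, and only libraries 2 and 3 against alpha cells. No PPY cell shared its barcode sequence with another library, whereas 58 of the 16177 barcodes did.

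PPY transcripts dominated these cells. The median PPY share of a cell's UMIs was 55.5, 33.8, 33.7 and 35.7% in libraries 1 to 4. Library 1 stood above the rest, with its quartiles at 48.9 and 59.4%. PPY cells had a median of 21822, 9620.5, 10570.5 and 12816 UMIs in libraries 1 to 4. Beta cells had 12627, 6511, 8119 and 14956 UMIs in the same libraries, so PPY cells were deeper in libraries 1 to 3 and shallower in library 4. Once each cell was thinned to 1500 UMIs from genes other than INS, GCG, SST and PPY, the median number of genes per cell was 902, 890.5, 897 and 930 in PPY cells and 897, 917, 936 and 911 in beta cells of libraries 1 to 4.

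The PPY threshold fell in a sparse range. The members just inside it had PPY at 5.04, 5.33, 5.54, 6.19 and 6.22% of UMIs, and the barcodes just outside it had 4.93, 4.67, 4.65, 4.61 and 4.56%. Of barcodes that passed the remaining limits, only 18 lay between 1 and 5% and 20 between 5 and 10%, against 388 between 40 and 60%. Of the 1058 barcodes with PPY at 5% or more, 66 were left out because other hormones were larger, 23 for acinar genes and 37 for PTPRC, and a barcode could fail on several counts.

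**Figure D1:**
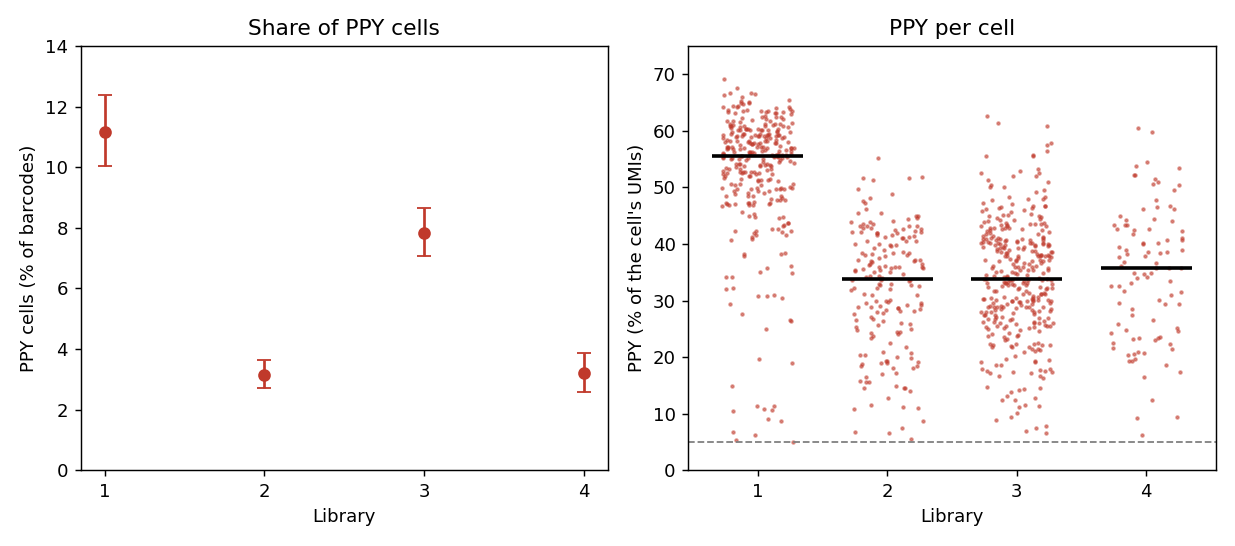
The left panel plots PPY cells as a percentage of barcodes in each library, with exact 95% binomial intervals. The right panel plots PPY as a percentage of UMIs in each of the 950 PPY cells by library, with black lines at the medians and a dashed line at the 5% limit of the rule. Library 1 has the highest share, 11.2%, and the highest median, 55.5%.

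The classes were compared on counts summed per library and expressed per 1000000 UMIs (CPM). A gene was called where its log2 ratio of CPM + 1 reached 1 or -1 in every library used and the class with more had 20 counts or more in each. Because PPY takes up to 53.7% of the summed UMIs, a call had to hold as it was and also after each library's ratios were centred on the median of the genes tested. That median over libraries was -0.20 against beta cells, -0.48 against delta cells and -0.22 against alpha cells. The 3 comparisons share the PPY cells and are not independent of each other.

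Against beta cells, 163 of 9950 genes tested were called higher on both scales (1.64%) and 263 lower (2.64%). Against delta cells 96 of 7278 were called higher (1.32%) and 87 lower (1.2%), and against alpha cells 117 of 7353 were called higher (1.59%) and 72 lower (0.979%). Centring moved the balance of calls. Against beta cells, 166 genes (1.67%) were higher and 323 (3.25%) lower before it, and 198 (1.99%) and 278 (2.79%) after it. Against delta cells, 96 genes were higher and 166 (2.28%) lower before centring, and 172 (2.36%) and 87 after it. Against alpha cells the split was 117 higher and 105 (1.43%) lower before centring, and 170 (2.31%) and 72 after it. Among genes with a unique symbol that does not start with LOC, 21 were called higher on both scales in all 3 comparisons, PPY of the rule among them. In the same set 0 were called lower in all 3. LOC genes are not in this count, and 16, 14 and 15 of them were called higher against beta, delta and alpha cells.

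GAST, the gene of gastrin, the acid-stimulating hormone of the stomach's G cells, led the list against beta cells. It had 659, 3062, 3021 and 192 CPM in PPY cells of libraries 1 to 4, against 1.86, 2.82, 8.01 and 0.0837 CPM in beta cells. The groups did not overlap, and libraries 2 and 3 were the high ones. The median log2 ratio was 8.12 over beta cells, 4.65 over delta cells, which had 8.50, 121 and 438 CPM in libraries 1 to 3, and 6.20 over alpha cells, which had 17.9 and 89.3 CPM in libraries 2 and 3.

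AGR2 and MSMB were called higher in all 3 comparisons too. AGR2 encodes a disulfide isomerase of the endoplasmic reticulum known from mucus-making epithelia. It had 378, 42.1, 124 and 132 CPM in PPY cells of libraries 1 to 4, against 1.86, 0.941, 2.20 and 0.419 CPM in beta cells, and its log2 ratio was 5.91 over beta, 5.43 over delta and 5.74 over alpha cells. MSMB encodes beta-microseminoprotein, a small secreted protein best known from the prostate. It had 154, 79.3, 50.6 and 60.8 CPM in PPY cells, against 0.414, 0.753, 1.00 and 0 CPM in beta cells. Library 1 was the highest for both genes, and every PPY value lay above every beta value.

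Some genes of mucus, glycans and mucosal protection were among those called against all 3 classes. TFF2, a trefoil peptide of the gastric mucosa that was listed here among duct markers, had 396, 229, 206 and 24.6 CPM in PPY cells of libraries 1 to 4. In beta cells it had 15.9, 16.6, 49.0 and 4.35 CPM. Its level in library 4 was thus below that of library 3's beta cells, although the ratio was past the limit in each library (median log2 ratio 2.98). In alpha cells of libraries 2 and 3, 51.6 and 44.6% had a TFF2 UMI, against 69.2 and 75.6% of PPY cells, at unequal depth. The transmembrane mucin MUC13 had 62.7, 10.6, 43.9 and 63.1 CPM in PPY cells and at most 4.2 CPM in beta cells. Its library 2 level rests on 20 UMIs in 14 PPY cells, the lowest count that can be called. C1GALT1, which builds the core 1 O-glycan of mucin-type sugars, had 103, 125, 137 and 163 CPM in PPY cells, against 21.5, 32.9, 32.6 and 32.3 CPM in beta cells. Other mucosal genes did not share this. FCGBP had a UMI in 5.40, 2.75, 3.93 and 1.03% of PPY cells, against 4.42, 2.71, 2.23 and 1.38% of beta cells. PIGR gave 0 UMIs in PPY cells of libraries 2 to 4, and TFF3 was in at most 1.97% of PPY cells in any library. No list of mucus genes was tested, so this grouping is only a description of named genes.

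Others of the 21 encode calcium-handling or signalling proteins. CALB1, the calcium buffer calbindin, had 16.4, 31.9, 26.3 and 45.4 CPM in PPY cells, against 0.414, 1.69, 1.60 and 0.419 CPM in beta cells. STAC2, an adaptor of L-type calcium channels, had 41.1, 36.2, 35.1 and 29.2 CPM in PPY cells, against 5.58, 3.39, 5.80 and 6.87 CPM in beta cells. The 2 genes had log2 ratios of 3.62 and 2.54 over beta cells. SGK1, a kinase induced by steroid hormones, SFRP1, a secreted Wnt modulator, the ephrin receptor EPHA8, the focal adhesion scaffold NEDD9, the asialoglycoprotein receptor subunit ASGR2, the medium-chain acyl-CoA synthetase ACSM3 and C10H14orf105 had median log2 ratios between 1.64 and 4.72 over the 3 classes.

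**Figure D2:**
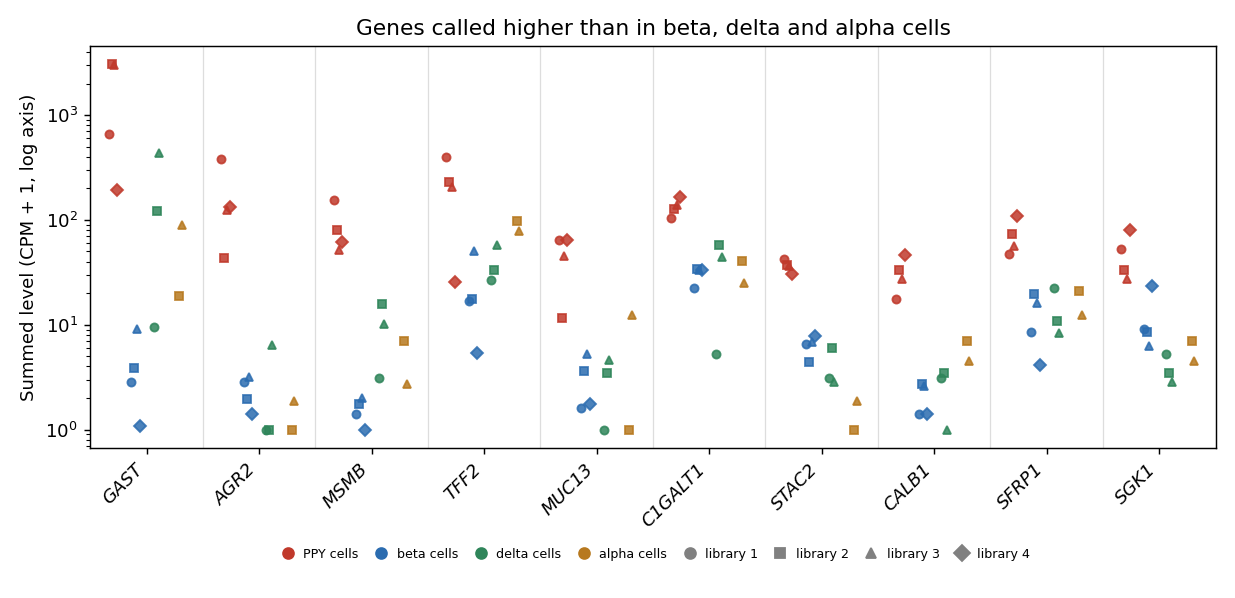
Each point is the summed level of a gene (CPM + 1, log axis) in a class and library, with PPY cells left of beta, delta and alpha cells, colours for class and symbols for library. For each of the 10 genes the PPY value lies above the other classes' values within every library used, while GAST ranges from 192 to 3062 CPM over the PPY cells of the 4 libraries.

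Shares of cells with a UMI were compared at equal depth. With every cell thinned to 1500 UMIs of genes other than the 4 hormones, GAST was seen in 14.6, 34.6, 32.3 and 8.25% of PPY cells in libraries 1 to 4. In stroma cells, which should lack GAST, it was seen in 0, 0.314, 0.345 and 0%, and in beta cells in 0.295, 0, 1.12 and 0%. Delta cells lay between, at 1.67, 11.3 and 22.5% in libraries 1 to 3, above the stroma. Before thinning the PPY shares were 31.7, 51.6, 58.7 and 10.3% and the stroma shares 0, 1.08, 1.77 and 0%, at median depths of 9620.5 to 21822 UMIs in PPY cells and 4990 to 8034 in stroma. MSMB was seen after thinning in 27.3, 9.89, 7.58 and 14.4% of PPY cells, against 0, 0.151, 0.372 and 0% of beta cells and at most 0.0349% of stroma cells in any library.

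GAST was concentrated in few PPY cells. The top 10% of cells held 97.3, 80.8, 94.7 and 100% of the GAST UMIs of libraries 1 to 4. GAST reached 1% of UMIs in 9, 24, 20 and 0 PPY cells of those libraries, 53 in all or 5.58% of PPY cells, and these cells held 84.2% of all GAST UMIs of the class. Its highest share in a cell was 19.8%. Without these 53 cells, a limit chosen after the values were seen, GAST still had 111, 325, 533 and 192 CPM in PPY cells, and its median log2 ratio was 6.15 over beta and 3.34 over alpha cells. Over delta cells it was 1.41 without them and no longer called, and it was also not called (3.72) once library 4, with 19 delta cells, was added.

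Of the 56 barcodes with GAST at 1% or more in the whole series, 53 were PPY cells, none was a beta, delta or alpha cell, and 3 were in none of these classes, with PPY under 5%. In these GAST-rich PPY cells the median PPY share was 42.7, 25.8 and 27.6% in libraries 1 to 3, against 55.7, 35.1 and 34.4% in the other PPY cells. In the 2 libraries with at least 10 of them, CALB1 stood at 122 and 106 CPM in GAST-rich cells of libraries 2 and 3, against 19.9 and 22.5 CPM in the other PPY cells. FGF12, an intracellular modulator of sodium channels, stood at 194 and 131 CPM in GAST-rich cells, against 21.7 and 25.4 CPM in the others. The granin CHGA stood at 541 and 407 CPM in GAST-rich cells, against 3139 and 2606 CPM in the others. GAST-rich cells were thus the higher ones for CALB1 and FGF12 and the lower ones for CHGA in both libraries. Of 6851 genes tested, 6 were called higher in them on both scales, GAST among these, and 171 lower. GCG was the lowest (-6.62), at 18.0 and 40.2 CPM, against 2317 and 3290 CPM in the others. The top 10% of all PPY cells held 99.5 and 98.8% of GCG UMIs in these libraries. GCG reached 1% of UMIs in only 8 and 14 PPY cells there, and the rule limits GCG. A group as small as the GAST-rich cells can miss such cells, so the GCG difference is not read as their trait. The GAST-rich sums rest on 24 and 20 cells, so low genes have few counts. A call needs 20 counts in the class with more, which the small GAST-rich sums reach for fewer genes. The counts called higher and lower are therefore not compared. Several leading lower genes had 0 UMIs in the GAST-rich cells, as ASPM did, against 16.9 and 35.6 CPM in the others. ETV1, a transcription factor, stood at 465 and 558 CPM in GAST-rich cells and at 446 and 532 CPM in the others. The cells were chosen by their GAST level, so these values carry no test.

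**Figure D3:**
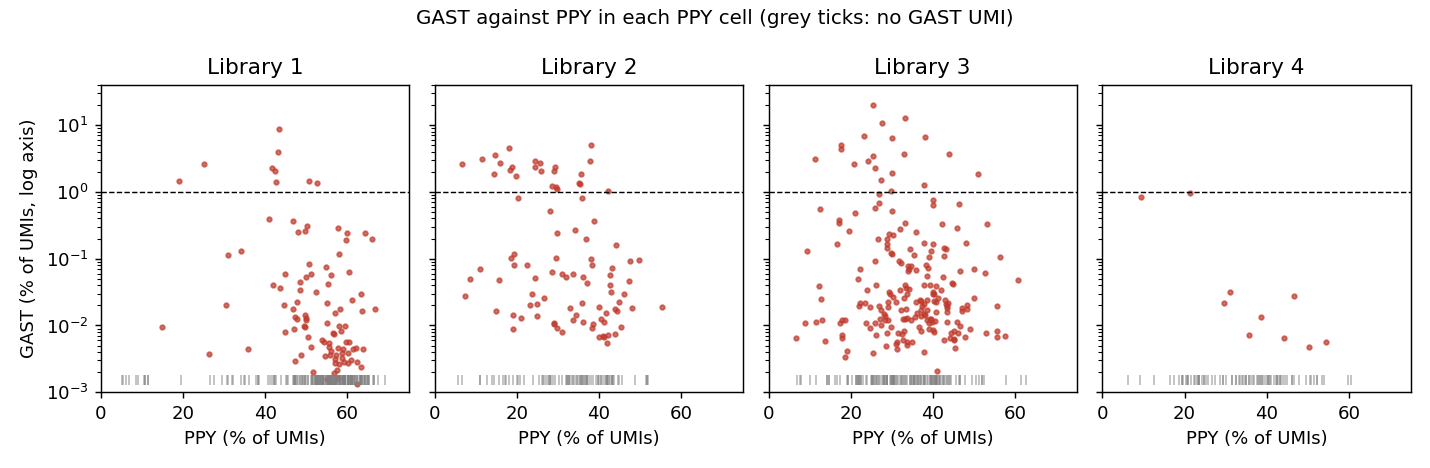
GAST is plotted against PPY, each as a percentage of UMIs (GAST on a log axis), for every PPY cell by library, with grey ticks for cells without a GAST UMI and a dashed line at 1%. The 53 cells above the line belong to libraries 1 to 3, and no cell of library 4 reaches it.

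Other peptide genes were present at lower levels. CARTPT, which encodes the satiety peptide CART, had 125, 440, 556 and 136 CPM in PPY cells of libraries 1 to 4, against 15.5, 42.5, 18.2 and 147 CPM in beta cells. Library 4 did not differ in the same direction and the gene was not called. In alpha cells CARTPT stood at 993 and 5352 CPM in libraries 2 and 3, above the PPY cells. TAC1, the gene of substance P, had 45.3, 0.532, 50.8 and 5.38 CPM in PPY cells and at most 1.45 CPM in beta cells. Delta cells had TAC1 at 48.9, 19.8 and 41.8 CPM in libraries 1 to 3, near the PPY level in libraries 1 and 3 and above it in library 2. CCK, the gene of cholecystokinin, gave 88 UMIs in 36 PPY cells, against 3 UMIs in 1 beta cell. NPY, the family member of PPY in nerves, gave 0 UMIs in PPY cells of all 4 libraries, and UCN3, a beta cell peptide, stood at 2.18, 0, 0.231 and 1.54 CPM in PPY cells, against 83.6, 70.0, 55.0 and 163 CPM in beta cells.

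Few PPY cells carried a further islet hormone in quantity, which the rule in part sets, since PPY had to exceed the others together. Another hormone held at least 5% of UMIs in 44 of the 950 cells, with INS in 25, GCG in 18 and SST in 1. Of all 1058 barcodes with PPY at 5% or more, 71 also had INS, 39 GCG and 3 SST at 5% or more. In library 4 INS was that high in 44 of 146 such barcodes, of which 7 were members. GCG differed most between libraries, at 296, 2046, 3140 and 18.5 CPM in PPY cells of libraries 1 to 4, and INS stood at 7664, 2657, 5883 and 7284 CPM. These sums rest on few cells. The top 5 cells held 86.6, 85.6 and 60.3% of GCG UMIs in libraries 1 to 3. For INS, the top 10% of cells held 97.6, 87.7, 87.2 and 91.0% of UMIs in libraries 1 to 4. Among UMIs of barcodes with 10 to 100 UMIs, a measure of free RNA, INS held 1.97, 1.79, 3.73 and 3.23%. Where each class was limited to cells whose other 3 hormones stayed under 1%, the log2 ratio of INS over alpha cells was 0.01 in place of 2.41.

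The transcription factors set PPY cells apart from each class by different genes. Of 26 listed islet factors measured against beta cells, 2 were called higher and 7 lower, with a list median of -0.87 against -0.20 for all genes tested. Over all genes tested, 1.64% were called higher and 2.64% lower than in beta cells. Against delta cells these shares were 1.32 and 1.2%, and against alpha cells 1.59 and 0.979%. List counts here and below stand beside these shares. FOXA1, a pioneer factor of endoderm, was among those called higher (1.83). It had 13.7, 19.7, 20.8 and 29.2 CPM in PPY cells of libraries 1 to 4, against 3.52, 8.47, 4.6 and 6.11 CPM in beta cells, and the groups did not overlap.

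MLXIPL, MNX1, NKX6-1, PDX1, MAFA and RFX6 were among the factors lower than in beta cells. MLXIPL, the glucose-responsive factor ChREBP, had 0.513, 6.92, 4.85 and 0.769 CPM in PPY cells, against 30.8, 76.2, 35.8 and 41.7 CPM in beta cells. PDX1, NKX6-1 and MAFA, which maintain beta cell identity, stood at 1.60 CPM or less in every library of PPY cells, against 4.55 to 17.7 CPM in beta cells. PDX1 and MAFA, which have low counts, were not called with a pseudocount of 10 CPM.

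Against alpha cells 1 of 22 factors was called higher and 4 lower. IRX1 and IRX2, homeobox genes of alpha cells, were among the lower ones, and IRX2 had 9.05 and 14.3 CPM in PPY cells, against 275 and 242 CPM in alpha cells. RFX6, a factor of endocrine differentiation, was lower as well, with 13.3 and 9.70 CPM in PPY cells, against 123 and 94.4 CPM in alpha cells.

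Against delta cells 3 of 21 factors were called higher and 2 lower. NKX2-2, a factor of the endocrine lineage, had 43.9, 83.6 and 62.8 CPM in PPY cells of libraries 1 to 3, against 12.8, 14.8 and 7.27 CPM in delta cells. HHEX, the delta cell factor, had 1.28, 1.60 and 0.924 CPM in PPY cells, against 410, 423 and 356 CPM in delta cells, and ISL1 was the other lower one (-1.98). PAX6, NEUROD1 and INSM1, general endocrine factors, were not called on both scales in any comparison. PAX6 had 89.8, 188, 158 and 212 CPM in PPY cells and 350, 395, 346 and 413 CPM in beta cells.

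**Figure D4:**
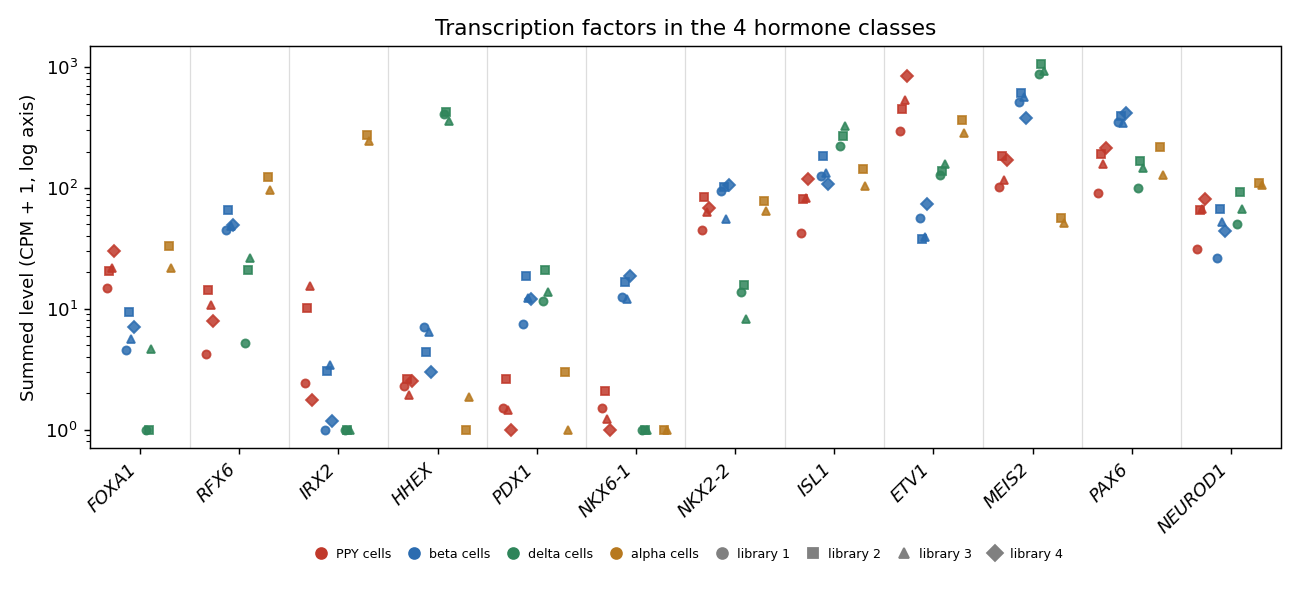
Summed levels of 12 transcription factors (CPM + 1, log axis) are plotted by class and library, with PPY cells left of beta, delta and alpha cells. PPY cells have ETV1 at 293 to 837 CPM, against 37.1 to 73.3 CPM in beta cells, while HHEX reaches 356 to 423 CPM in delta cells and IRX2 242 and 275 CPM in alpha cells.

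Genes named for PP cells in human and mouse studies behaved unevenly in the goat. Of 14 measured against beta cells, 2 were called higher and 3 lower, with a median of -0.36 against -0.20 for all genes tested. Of 12 against delta cells, 3 were higher and 1 lower, and of 12 against alpha cells 3 were higher and 2 lower. ETV1, a transcription factor, had 293, 448, 533 and 837 CPM in PPY cells of libraries 1 to 4, against 55.8, 37.1, 38.6 and 73.3 CPM in beta cells, and CALB1 was the other higher gene. MEIS2, a homeobox factor, had 100, 182, 116 and 168 CPM in PPY cells, against 514, 615, 565 and 382 CPM in beta cells. Over alpha cells MEIS2 was called higher (1.44), and over delta cells it was called lower. FEV and TTR, a transcription factor and the thyroid hormone carrier transthyretin, were the 2 called lower than in alpha cells, and TTR had 2650 and 1780 CPM in PPY cells of libraries 2 and 3, against 18400 and 17244 CPM in alpha cells.

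Prohormone processing genes also diverged. Of 18 measured against beta cells, 3 were called higher and 4 lower, with a median of 0.26 against -0.20 for all genes tested. The shares called over all genes tested were 1.64% higher and 2.64% lower. PCSK1, a convertase, had 265, 96.9, 156 and 262 CPM in PPY cells of libraries 1 to 4, against 2038, 578, 1432 and 1849 CPM in beta cells. In alpha cells PCSK1 was 1.99 and 6.93 CPM in libraries 2 and 3, and the log2 ratio of PPY over alpha cells was 4.67. PCSK2, the other convertase, had 68.9, 93.7, 72.6 and 48.5 CPM in PPY cells, against 544, 351, 368 and 640 CPM in beta cells. It was called lower than in delta cells as well (-2.92). Both convertases thus lay below the beta level in every library, and PCSK1 above the alpha level in both libraries compared.

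PAM, the amidating enzyme, had 238, 323, 327 and 261 CPM in PPY cells, against 64.3, 90.5, 80.5 and 98.7 CPM in beta cells (median log2 ratio 1.85). RESP18, a granule protein, had 1317, 1620, 899 and 852 CPM in PPY cells, against 334, 301, 250 and 154 CPM in beta cells. SLC18A1, a vesicular monoamine transporter, was the third gene called higher (2.72), at up to 29.2 CPM, and was not called with a pseudocount of 10 CPM. CHGA was lower than in alpha cells (log2 ratio -2.43), with 2832 and 2505 CPM in PPY cells and 16413 and 12487 CPM in alpha cells of libraries 2 and 3. CPE, the carboxypeptidase that trims peptides after cleavage, had log2 ratios of 0.21, -0.14 and -0.08 over beta, delta and alpha cells.

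Of 21 exocytosis genes measured against beta cells, RAB3C was called higher and SYT13, CPLX1 and RAB3B lower, with a median of -0.36. Over all genes tested, 1.64% were called higher and 2.64% lower. SYT13, a synaptotagmin, was lower than in delta cells too (-2.70), and SYT7 and RPH3AL were lower than in alpha cells, of 16 measured in each. RAB3B, a vesicle GTPase, had 2.31, 2.66, 6.24 and 1.54 CPM in PPY cells, against 53.8, 39.5, 69.5 and 57.5 CPM in beta cells. RAB3C, its relative, had 88.9, 111, 119 and 205 CPM in PPY cells, against 29.4, 53.1, 56.4 and 52.3 CPM in beta cells, and was not called without the GAST-rich cells (1.29). RAB27B, a GTPase of secretory granules that is in no list, had 54.3, 66.0, 70.2 and 100 CPM in PPY cells, against 1.45, 3.95, 5.40 and 1.17 CPM in beta cells (4.13).

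Beta cell genes were low in PPY cells. Of 15 measured, 10 were called lower than in beta cells and NPTX2 higher, and INS, which the rule used, is among the 10. Of 8 glucose-sensing genes, SLC2A2, G6PC2 and PFKFB2 were called lower. SLC2A2, the GLUT2 glucose transporter, had 5.26, 2.13, 3.00 and 5.38 CPM in PPY cells of libraries 1 to 4, against 200, 254, 185 and 261 CPM in beta cells (-5.45). G6PC2, which opposes glucokinase, had at most 3.70 CPM in PPY cells, against 10.5 to 82.9 CPM in beta cells, and GAD2, the GABA-making enzyme, had a log2 ratio of -4.65. The genes of the ATP-sensitive potassium channel were not called: ABCC8 had 89.4, 58.6, 103 and 176 CPM in PPY cells and 140, 131, 184 and 122 CPM in beta cells, and KCNJ11 had a log2 ratio of -0.74. Other genes among the lowest were ASB9 (-6.14), UCN3 (-5.76), NELL2 (-5.28), NTM (-5.26), the catecholamine enzyme TH (-5.19), DNER and DAPL1 (-4.66).

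Receptors of nerve, gut and islet signals were called lower or not called. Of 12 measured against beta cells, 6 were lower and none higher, with a median of -1.58 against -0.20 for all genes tested. Among all genes tested, 2.64% were called lower and 1.64% higher. GLP1R, the receptor of the incretin GLP-1, had 6.93, 5.86, 2.08 and 5.38 CPM in PPY cells, against 58.9, 74.7, 55.8 and 63.0 CPM in beta cells. ADRA2A, an adrenergic receptor that restrains insulin release, had 2.31, 0.532, 0.924 and 2.31 CPM in PPY cells, against 41.4, 57.9, 35.8 and 27.4 CPM in beta cells. The ghrelin receptor GHSR, GCGR, IGF1R and PRLR were the other 4. CHRM3, the muscarinic receptor of vagal input, had 5.00, 4.79, 6.47 and 26.2 CPM in PPY cells, against 0.207, 0.941, 1.80 and 0.251 CPM in beta cells, and had too few counts to be measured by the rule. GPR119, a lipid-sensing receptor, was called lower than in alpha cells, with 2.66 and 12.2 CPM in PPY cells and 102 and 228 CPM in alpha cells of libraries 2 and 3. RAMP1, a receptor partner, and SCTR, the secretin receptor (-5.24), were called lower than in delta cells.

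Some receptors outside the list were called higher than in beta cells. SUCNR1, the succinate receptor, had 55.0, 25.02, 57.1 and 90.0 CPM in PPY cells, against 0.414, 0, 1.40 and 0.251 CPM in beta cells. It gave 0 counts in delta cells, where the PPY level was at least 24.5-fold higher against a floor of 3 counts over the delta cells, and 45.8 and 42.5 CPM in alpha cells of libraries 2 and 3, where it was not called. TAAR1, the trace amine receptor, had 45.4, 49.5, 113 and 69.2 CPM in PPY cells, against 0.207, 0, 2.40 and 0.167 CPM in beta cells, and stood at 65.7 and 85.8 CPM in alpha cells of libraries 2 and 3. Other genes outside the lists that led over beta cells were FGG, which encodes the fibrinogen gamma chain (4.93), SLC38A11, BCAS1 and the potassium channel gene KCNC2.

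Of 11 alpha cell genes measured against beta cells, 5 were called higher in PPY cells, DPP4, TM4SF4, PDK4 and F10 among them. DPP4, the peptidase that cleaves incretins, had 47.1, 86.8, 94.3 and 118 CPM in PPY cells, against 1.03, 15.8, 6.00 and 7.62 CPM in beta cells. CRYBA2 and PTGER3 were the 2 called lower. The shares of all genes tested called against beta cells were 1.64% higher and 2.64% lower. Against alpha cells themselves, 6 of 12 were called lower, GCG of the rule among them, and 1 higher. The call of PDK4 was lost in cells with under 1% of the other hormones (1.60) and without the cells of highest doublet score (1.63).

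Delta cell genes were low against delta cells, where SST, used by the rule, HHEX and RBP4 were called lower among 6 measured and BCHE higher. RBP4, the retinol carrier, had 7.06, 30.3 and 12.9 CPM in PPY cells of libraries 1 to 3, against 1454, 3311 and 2897 CPM in delta cells. SPP1, the secreted protein osteopontin, had 2.05, 2.66 and 1.85 CPM in PPY cells, against 708, 373 and 469 CPM in delta cells. KCNH6, a potassium channel, gave 0 counts in delta cells and was at least 22.7-fold higher in PPY cells. FSTL5, a follistatin-like gene, gave 0 counts in delta and alpha cells and was at least 17.3-fold and 19.4-fold higher in PPY cells, against the same floor over each class.

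Among channels, SCN2A, SCN3A and GRIA3 were called higher than in beta cells and 2 lower, SCN9A among them, of 21 measured. The list median was 0.27 against -0.20 for all genes tested, of which 1.64% were called higher and 2.64% lower. SCN3A, a neuronal sodium channel, had 49.9, 74.5, 73.0 and 142 CPM in PPY cells, against 3.52, 16.2, 7.81 and 3.43 CPM in beta cells. GRIA3, a glutamate receptor subunit, had 40.7, 74.5, 87.3 and 121 CPM in PPY cells, against 12.4, 12.4, 12.0 and 9.96 CPM in beta cells. Against alpha cells none of 17 channels was called, where 1.59% of all genes tested were called higher and 0.979% lower. At those shares a list of this size can hold no call, and nothing is read from it.

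PEG3, an imprinted zinc finger gene, separated PPY cells from alpha cells. It had 829 and 828 CPM in PPY cells of libraries 2 and 3, against 19.9 and 25.1 CPM in alpha cells (5.15), and 526 and 371 CPM in beta cells of those libraries. LOC102189516 and LOC102172380, which stand between ZIM2 and PEG3 in the RefSeq gene order of assembly ARS1.2, showed the same contrast, with log2 ratios of 8.17 and 5.99 over alpha cells. Of the 11 imprinted genes measured against alpha cells, PEG3 was the only one called. Against beta cells PEG10 and PLAGL1 were lower of 13, and against delta cells NNAT was lower of 11.

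Uncharacterised genes ranked high as well. LOC102185401, which lies between SERPINA10 and SERPINA11 in that gene order, had 402, 1471, 1571 and 1181 CPM in PPY cells of libraries 1 to 4, against 2.07, 75.8, 9.21 and 10.1 CPM in beta cells, and was 3.41 over alpha cells on the log2 scale. LOC106501767 had 131, 326, 134 and 188 CPM in PPY cells and at most 2.45 CPM in beta cells. LOC106503280, the gene next to PPY, had 99.8, 454, 912 and 165 CPM in PPY cells, against 0.827, 2.07, 6.00 and 0.502 CPM in beta cells, and 159 and 974.8 CPM in alpha cells of libraries 2 and 3. Whether reads of PPY reach this neighbour was not tested. After PPY, the gene with the highest share of PPY-cell UMIs was LOC102188874 (median over libraries 1.41%), at 11135, 16978, 22614 and 10882 CPM in PPY cells and 19571, 12502, 15271 and 16885 CPM in beta cells. TMSB15B, a thymosin, was also among the 10 with the largest shares, at 5305, 5398, 6175 and 10337 CPM in PPY cells. Alpha cells held more of it, with 14781 UMIs in 64 cells of library 2 and 32388 in 112 cells of library 3. The PPY cells of those libraries gave 10139 UMIs in 182 cells and 26724 in 356 cells.

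Short-chain fatty acid and ketone genes, of interest in a ruminant, showed no call in any comparison, over 11 genes against beta cells and 7 against each of the others. With 1.64% of all genes called higher and 2.64% lower than in beta cells, lists of this size can hold no call at the share of all genes, and nothing is read from it. OXCT1, which starts ketone use, had 27.7, 46.3, 39.97 and 43.1 CPM in PPY cells and 40.5, 48.9, 53.8 and 58.9 CPM in beta cells. FFAR3, a receptor of short-chain fatty acids, had 7.96, 9.05, 11.6 and 18.5 CPM in PPY cells and 42.8, 42.5, 27.2 and 34.5 CPM in beta cells, where the ratio in library 4 missed the limit. Against alpha cells FFAR3 had too few counts to be measured by the rule. It gave 67 counts in PPY cells and 0 in alpha cells of libraries 2 and 3, at least 5.96-fold higher against a floor of 3 counts. Of 21 genes of folding in the endoplasmic reticulum none was called against any class, with list medians of -0.60 over beta, -0.19 over delta and 0.72 over alpha cells. Of 21 epithelial and adhesion genes, CADM1, CNTN1 and SPOCK1 were lower than in beta cells, and ROBO1 was higher and CADM1 and ROBO2 lower than in delta cells.

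Of 18 immediate early genes, a class known to respond to tissue dissociation, FOS, FOSB, JUN and DUSP1 were called lower than in beta cells. FOS had 615, 446, 102 and 1141 CPM in PPY cells of libraries 1 to 4, against 2017, 1491, 222 and 3109 CPM in beta cells. Library 3 was the lowest and library 4 the highest in both classes. The list median was -0.998 against -0.20 for all genes tested.

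Cycling cells were found among PPY cells of 2 libraries. With at least 3 UMIs over MKI67, TOP2A, CDK1, BIRC5, UBE2C and CENPF, a limit chosen after the values were seen, 53 of 356 PPY cells counted as cycling in library 3 (14.9%, exact 95% interval 11.4 to 19.02%). In library 2 they were 6 of 182 (3.30%, 1.22 to 7.04%), and in libraries 1 and 4 they were 0 of 315 and 0 of 97, which allows shares of up to 0.952% and 3.09% by the limit of 3 counts and up to 1.16% and 3.73% by the exact interval. Beta cells gave 6.32% in library 3 and 1.06% in library 2, and alpha cells 14.3% in library 3. Cycling PPY cells of library 3 had a median of 15411 UMIs and other PPY cells of that library 9874. At the thinned depth of 1500 UMIs the shares in library 3 were 10.7% of PPY cells (7.67 to 14.4%), 5.02% of beta cells (3.33 to 7.22%), 11.6% of alpha cells and 0.935% of stroma cells. These intervals cover counting error inside a library and are no test between the classes. At that depth 0 PPY cells of libraries 1 and 4 passed. None of the proliferation genes was called in any comparison, over 5 genes against beta cells, 4 against delta cells and 13 against alpha cells. In library 1 the 6 cycling genes summed to 1 UMI in PPY, 8 in beta and 0 in delta cells. That library enters the beta and delta comparisons, so none of the 6 could be called in them. TOP2A summed to 226 CPM in PPY cells of library 3, against 72.9 CPM in beta cells.

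**Figure D5:**
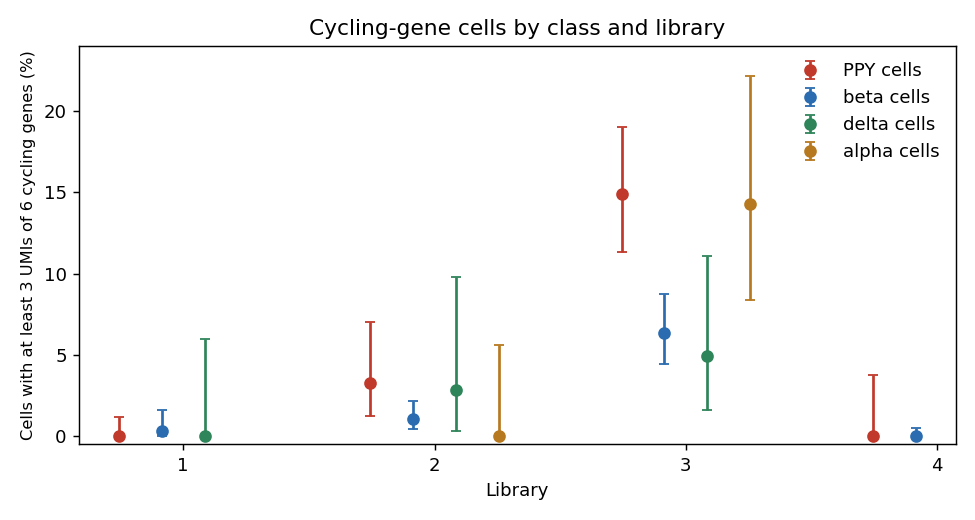
The percentage of cells with at least 3 UMIs of the 6 cycling genes is plotted for PPY, beta, delta and alpha cells by library, with exact 95% binomial intervals. PPY cells of library 3 stand at 14.9% and those of libraries 1 and 4 at 0%, and classes under 20 cells are not drawn.

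Several of the other genes that ranged most between libraries in PPY cells had a like range in beta cells. LOC102176156 had 4.23, 3929, 1952 and 7.69 CPM in PPY cells and 4.55, 4028, 2304 and 7.45 CPM in beta cells of libraries 1 to 4, and LOC102174148 was high in the other two libraries, with 936, 0.532, 2.54 and 158 CPM in PPY cells. PNLIP, the pancreatic lipase, had 119, 0, 0 and 19.2 CPM in PPY cells and 118, 0, 0 and 46.9 CPM in beta cells. SDS had 162 CPM in PPY cells of library 4, against 96.8 CPM in its beta cells, and LOC102169149 had 134 CPM, against 60.7 CPM. TFF3, a trefoil peptide of goblet cells, stood at 202 CPM in PPY cells of library 1, where 6 cells held all of its 1572 UMIs, and at 3.19 CPM or less elsewhere. In beta cells TFF3 had 0, 1.51, 15.6 and 0 CPM, so its range was narrower there and its highest library was library 3.

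Within libraries, few pairs of features passed the correlation limit across PPY cells. Each cell was first thinned to 3500 UMIs, of which PPY took a large part. Genes with few UMIs in a cell can fall short of the limit, so nothing is read from the pairs that did. Over 1303305 pairs among 1613 genes and cell measures, only 7 reached a Spearman correlation of 0.3 in size in every library. The PPY share correlated with LOC102188874 (0.449 to 0.503 over libraries), RESP18 (0.349 to 0.435) and SCG3, a granin of granule sorting (0.319 to 0.562). LOC102188874 correlated with its neighbour LOC108633189 (0.429 to 0.516). These correlations are across cells of the same library, which share depth and total, and are a description.

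Markers of acinar, stroma, immune and endothelium cells were at low levels in PPY cells. Duct markers, and nerve and glia markers, were above their levels in some other classes. Summed over 14 acinar markers the level was 1001 to 3026 CPM over libraries in PPY cells, against 1341 to 2707 CPM in beta cells and 144075 to 323043 CPM in acinar cells. Over 13 stroma markers it was 349 to 2638 CPM in PPY cells, against 412 to 4704 CPM in beta cells. Over 15 duct markers it was 215 to 988 CPM in PPY cells, against 77.9 to 332 CPM in beta cells, where TFF2 was the marker called higher, and against alpha cells APOA1 was called higher as well. Duct markers summed to 769 to 1084 CPM in delta cells and 1093 to 2459 CPM in acinar cells. The part of these markers in the results was not tested. Over 13 immune markers it was 45.7 to 232 CPM in PPY cells, with 2 of them at 0, and 16.4 to 205 CPM in beta cells. Endothelium markers summed to 6.70 to 13.3 CPM in PPY cells, and nerve and glia markers to 45.8 to 85.4 CPM. For nerve and glia markers beta cells had 88.1 to 123 CPM and stroma cells 0.611 to 4.70 CPM. Of acinar markers only CELA1 was called, higher than in alpha cells, and none of the 10 stroma markers measured against beta cells or the 9 against each of the others was called. At most 2 immune and 2 nerve and glia markers, and 0 of the 11 endothelium markers, had enough counts to be called at all, so their lists say nothing on calls. PPY itself held 4.48, 0.925, 2.10 and 0.442% of the free RNA of libraries 1 to 4, and library 1 came nearest to the 5% limit.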

How the data were processed

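The authors deposited whole UMI counts per gene and barcode in a single unfiltered matrix of 4 libraries, listing 27137 genes. Per the submitters' processing notes, Cell Ranger 3.1.0, Seurat 3.1.1 and bcl2fastq were used, whereas the version in the matrix, per the file headers, is 5.0.1. For the build and its annotation, no version is given in the sources used here. From these counts, classes were selected by hormone share, summed per library and compared as log2(CPM + 1), a scale that understates differences of low genes. Python 3.11.15 with numpy 2.4.6, scipy 1.17.1, pandas 2.3.3 and scanpy 1.11.5 was used.

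Doublets were not removed. Scrublet marked 45, 211, 112 and 3 barcodes of libraries 1 to 4, and with 3 of 3038 in library 4 its calls were not relied on there. An alternative left out the 5% of barcodes with the highest scores. Intervals cover counting error only. The summed PPY cells held 1299976 to 7793028 UMIs per library, and the delta and alpha cells used held 404402 to 1154058. The 23 gene lists hold 459 genes, of which 440 matched a symbol of the feature list. The members and lists were chosen with earlier results of these data known.

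Genes named are list genes, the 15 highest and 10 lowest called genes of each comparison on both scales, the 15 called in all 3 comparisons with the largest smallest ratio, the 10 with the largest range over libraries, and the 10 with the largest share of PPY-cell UMIs. Up to 3 genes without a name (LOC) are given per comparison and direction. FGF12 and the values of GAST-rich and cycling cells were picked with their values in view, as was the thinning to 1500 UMIs. Tested on simulated counts of 27137 genes with 200 changed, the rule without centring found 100% of log2 differences of 3 for all 3 classes. The changed genes were drawn only from genes well counted in both classes in every library used. Genes near 0 in the other class were thus not covered, nor was the second scale. For log2 differences of 1.5 it found 41% against beta, 56% against delta and 68% against alpha cells. Unchanged genes called numbered 0, 6 and 20. Some genes counted in these lists are not reported here by name.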

Additional observations from a re-analysis of the deposited data

Results flagged for a closer look

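Some barcodes outside the selection carried the same hormone. Among barcodes with at least 500 and under 3500 UMIs, 303 of 23894 met the hormone rule for PPY, with 118, 55, 58 and 72 in libraries 1 to 4 and a median PPY share of 27.4%. In library 4, 30 barcodes with PPY at 5% or more held a PTPRC UMI and were left out, against 6, 0 and 1 in libraries 1 to 3. In the whole series 3 barcodes had GAST at 1% of UMIs or more and belonged to none of the 4 hormone classes, and all had PPY under 5%. No explanation was weighed for these values.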

How the results depend on the processing

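The number of PPY cells, 950, stayed between 833 and 1039 under other limits on PPY, depth, acinar genes, PTPRC and doublet score, and between 594 and 853 without 1 library, the lowest without library 3. No called gene changed direction in 3226 recomputed values of named genes and of the GAST level, 3072 kept their side of the limit, 153 fell short of it, and 1 moved. Many of these values could not fail. Runs without 1 library or without a count minimum keep every call by construction, and the limit of 10 cells changes nothing against beta and alpha cells. A gene with too few counts under a setting was left out there and not counted as falling short. The median GAST level over libraries moved to 258 CPM without the GAST-rich cells, an alternative added after seeing the data. Counts of calls depended on low genes and scale. Against beta cells, 166 genes were called higher and 323 lower before the second scale was required. A pseudocount of 10 CPM gave 86 and 127, at least 50 counts gave 96 higher, and no count minimum gave 267 higher. Against delta cells (96 and 166) the centred scale gave 172 and 87, CPM without the 4 hormones 169 and 88, a pseudocount of 10 CPM 51 higher, at least 50 counts 55 and 62, and no count minimum 194 and 725. Using libraries with at least 10 cells, which adds library 4, gave 70 lower. Against alpha cells (117 and 105) CPM without the 4 hormones gave 222 and 60, a pseudocount of 10 CPM 64 higher, at least 50 counts 64 and 43, and no count minimum 364 and 481. Without 1 library the counts higher and lower ranged over 180 to 214 and 367 to 448 against beta cells, 128 to 180 and 220 to 295 against delta cells, and 368 to 431 and 355 to 460 against alpha cells, where 1 library is left. Fewer libraries ease the rule that every library must pass, by construction. The causes of the other shifts were not tested. No paired analysis was possible because the library numbers carry no replicate or age label that could pair goats across ages. The comparisons of cell classes are themselves ratios within each library. Delta and alpha sums are the shallowest, which limits genes under about 20 counts.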
